A study of Mus musculus with 16 samples.

Results

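The androgen-induced cellular genes followed here are 8 genes whose products stay in or on the cell rather than in the prostatic fluid: Fkbp5, Zbtb16, Tmprss2, Mme, Steap4, Ndrg1, Herc3 and Tsc22d3. They were chosen by name from a list of non-secretory androgen-induced genes, and all 8 were found among the 29535 genes of the deposited table and among the 16895 genes that were tested. The table holds RNA sequencing of whole prostate from 16 libraries of mice aged 12 months, on a hybrid of 129/SvImJ and C57Bl/6J. Animals carried both intact copies of 1 gene (+/+, wild type) or were homozygous mutants (-/-), and received vehicle or finasteride. The wild type gave 3 vehicle and 5 finasteride libraries, and the mutant likewise 3 and 5. The dose and length of treatment, and whether each library was a separate animal, are not given in the sources used here, so a p-value here reflects only how far such libraries scatter, which may be technical. Replicate numbers follow the order of deposition.

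Testosterone reaching the prostate is turned by 5-alpha-reductases into dihydrotestosterone, the more potent androgen. Androgens act in the nucleus through hormone response elements in DNA and raise transcription of their target genes. Finasteride inhibits 5-alpha-reductase and so lowers dihydrotestosterone. Glucocorticoids act through nearly the same DNA element, and Fkbp5, Zbtb16 and Tsc22d3 are known to answer to both hormones.

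Values are the authors' normalized expression on a log2 scale, so a difference of 1 is a doubling, and they are compared only within a gene. Differences were fitted with limma over all tested genes and are given as log2 fold changes ± SE with adjusted p (Benjamini-Hochberg over 16895 genes, threshold 0.05). The sum of all linear values, as its log2, was 24.07 to 24.16 for mutants on finasteride and 24.31 to 24.55 elsewhere. Each library was set against weighted means, on the linear scale, of 2 libraries from the same group. For 5 of the 16 libraries the root mean square difference over genes was under 0.1 log2 units. In wild type these were replicate 3 on vehicle and replicate 4 on finasteride. In the mutant they were replicate 3 on vehicle and replicates 3 and 4 on finasteride. If those are not separate samples, p-values over 16 libraries are too small, so each difference was also fitted on the 11 other libraries. The marker genes of luminal epithelium, the secretory cell layer of the prostate, were present in every library (0 of 7 under a log2 value of 3), and their summed level stayed between 15.85 and 16.33.

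Fkbp5 encodes an immunophilin that joins HSP90 in steroid receptor complexes and is among the most used reporters of androgen action. Its expression was 13.00, 12.61 and 12.72 in wild type on vehicle, and 10.36, 11.54, 11.93, 11.32 and 10.24 in wild type on finasteride. In the mutant it was 11.27, 11.73 and 11.54 on vehicle, and 12.89, 13.32, 12.97, 13.00 and 13.07 on finasteride. Both wild type on vehicle and mutant on finasteride were high, and the other groups were low. The low groups overlapped each other and so did the high ones, while no library of a low group reached a high one. Finasteride lowered Fkbp5 in wild type (-1.70 ± 0.30, adjusted p = 0.000618) and raised it in the mutant (1.54 ± 0.30, adjusted p = 0.000645). The finasteride effect in the mutant minus that in wild type was 3.24 ± 0.42 (adjusted p = 1.73e-05). On vehicle Fkbp5 was lower in the mutant (-1.26 ± 0.33, adjusted p = 0.00933, but 0.129 over 11 libraries), and on finasteride it was higher in the mutant (1.97 ± 0.26, adjusted p = 8.65e-06). In bulk tissue, fewer cells of a type and less RNA per cell cannot be told apart.

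Steap4, a membrane metalloreductase that reduces iron and copper for uptake, had the profile nearest to Fkbp5 among the members. Their values, each centred on its own mean, differed by a root mean square of 0.32 log2 units over 16 libraries. Steap4 was 9.18, 8.71 and 8.97 in wild type on vehicle, against 7.07, 7.93, 7.50, 7.32 and 7.27 on finasteride. It was 7.70, 7.69 and 7.85 in mutant on vehicle, against 8.91, 9.45, 9.03, 9.05 and 9.28 on finasteride. The high groups were again wild type on vehicle and mutant on finasteride, with no overlap with the low ones. Finasteride lowered it in wild type (-1.54 ± 0.17, adjusted p = 2.53e-05) and raised it in the mutant (1.40 ± 0.17, adjusted p = 1.09e-05), and these effects differed by 2.93 ± 0.24 (adjusted p = 2.53e-07). The mutant was lower on vehicle (-1.21 ± 0.19, adjusted p = 0.000199) and higher on finasteride (1.72 ± 0.15, adjusted p = 9.31e-08). Each of these Steap4 calls was kept over 11 libraries, with adjusted p between 0.000163 and 0.0207.

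**Figure D1:**
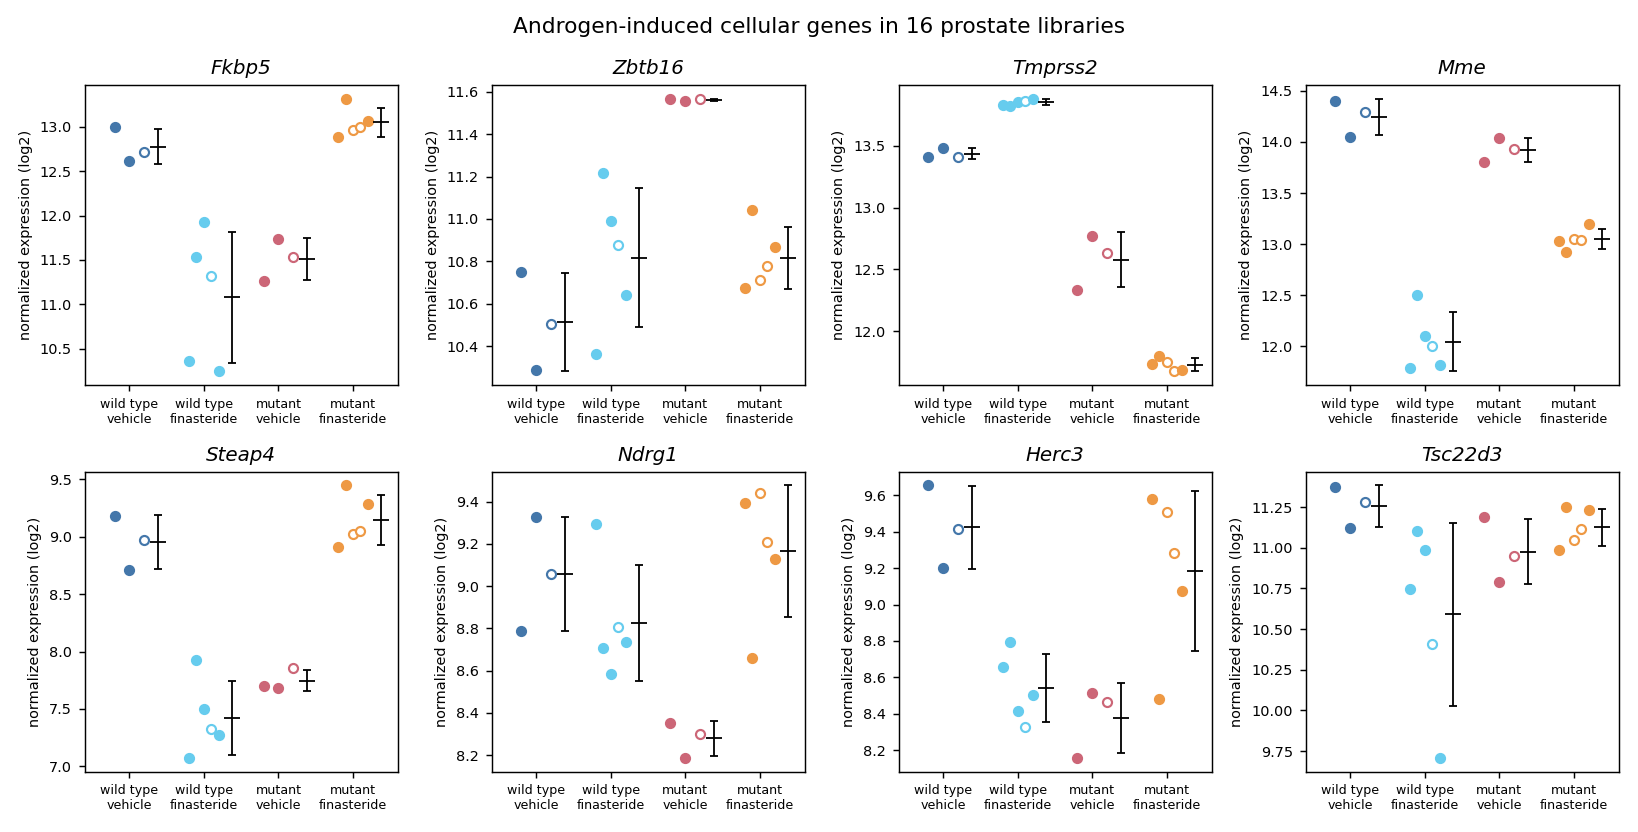
Normalized expression (log2, y axis) of each of the 8 genes in every library, by group. Filled points are the 11 other libraries and open points the 5 mixture-like ones, with the mean and SD of all libraries of the group beside them in black; Fkbp5 and Steap4 are high in wild type on vehicle and in mutant on finasteride, whereas Tmprss2 falls to between 11.68 and 11.80 in mutant on finasteride.

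The sequence before the gene start was read for Fkbp5 and Steap4, as the members whose levels moved most alike. It was also read for Tsc22d3, the only one of the 6 members searched with a hormone response hexamer there. Of the 8 genes, 6 had entries in the RefSeq promoter table (GRCm38.p6), with 10 starts in all. Ndrg1 and Zbtb16 had no entry. In the 250 bases before each start, the hexamer TGTTCT of androgen and glucocorticoid response elements was searched on both strands. It was found in 1 of the 10 windows, 185 bases before a start of Tsc22d3, against 16.1% of all 32851 windows. The whole palindrome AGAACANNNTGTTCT and its looser form GNACANNNTGTNC, which overlap the hexamer, were found in 0 of the 10, against 0.00913% and 0.387% of all windows. The absence of a match concerns only these letters in these windows. Capitals mark the hexamer. The windows lie at chr17:28486150-28486399 (minus strand), chr5:7960222-7960471 (plus strand) and chrX:140600523-140600772 (minus strand), each written on the strand of its gene.
Fkbp5: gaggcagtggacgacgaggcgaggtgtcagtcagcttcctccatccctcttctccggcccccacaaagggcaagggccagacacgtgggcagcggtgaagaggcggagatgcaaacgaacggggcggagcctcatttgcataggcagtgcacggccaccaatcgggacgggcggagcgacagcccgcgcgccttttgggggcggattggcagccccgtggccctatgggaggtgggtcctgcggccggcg
Steap4: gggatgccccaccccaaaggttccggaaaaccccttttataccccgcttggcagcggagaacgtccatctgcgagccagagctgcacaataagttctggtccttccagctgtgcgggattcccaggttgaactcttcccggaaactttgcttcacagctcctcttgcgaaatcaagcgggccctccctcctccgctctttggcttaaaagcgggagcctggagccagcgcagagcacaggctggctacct
Tsc22d3: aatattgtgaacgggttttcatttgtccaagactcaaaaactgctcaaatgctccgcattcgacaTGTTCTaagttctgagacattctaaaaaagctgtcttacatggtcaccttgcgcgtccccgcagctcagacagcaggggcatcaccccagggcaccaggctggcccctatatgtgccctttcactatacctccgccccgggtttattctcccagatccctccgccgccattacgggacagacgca

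Mme, neprilysin, is a membrane peptidase that cuts small signalling peptides outside the cell. It stood at 14.40, 14.05 and 14.29 in wild type on vehicle and at 11.79, 12.51, 12.10, 12.01 and 11.82 on finasteride. In the mutant it stood at 13.80, 14.04 and 13.93 on vehicle and at 13.03, 12.92, 13.05, 13.04 and 13.19 on finasteride. Every finasteride library lay under every vehicle library, and wild type on finasteride was lowest. Finasteride lowered Mme in wild type (-2.20 ± 0.14, adjusted p = 2.75e-07) and, by less, in the mutant (-0.88 ± 0.14, adjusted p = 0.000106). The effects differed by 1.33 ± 0.19 (adjusted p = 4.77e-05), and Mme was the single member that fell in both genotypes. Mutant exceeded wild type on finasteride (1.0 ± 0.12, adjusted p = 3.04e-06). On vehicle the difference did not pass (-0.32 ± 0.15, adjusted p = 0.122, 95% interval -0.65 to 0.0026), although the ranges did not overlap; it passed without replicate 2 of wild type on finasteride (adjusted p = 0.0355), which enters only through the shared spread, and with only the compared groups (0.0415).

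Tmprss2 encodes a serine protease on the surface of luminal cells, and in human prostate cancer its androgen-driven promoter is often fused to ETS genes. It was 13.41, 13.49 and 13.41 in wild type on vehicle and 13.83, 13.82, 13.85, 13.87 and 13.88 on finasteride. The mutant had 12.33, 12.77 and 12.64 on vehicle and 11.74, 11.80, 11.75, 11.68 and 11.69 on finasteride. No pair of groups overlapped, and the order ran from mutant on finasteride through mutant on vehicle and wild type on vehicle to wild type on finasteride. Finasteride thus raised Tmprss2 in wild type (0.42 ± 0.079, adjusted p = 0.00107, but 0.0686 over 11 libraries) and lowered it in the mutant (-0.85 ± 0.079, adjusted p = 1.03e-06). The difference between these effects was -1.27 ± 0.11 (adjusted p = 5.74e-07). The mutant had less Tmprss2 on vehicle (-0.86 ± 0.089, adjusted p = 5.78e-06) and on finasteride (-2.12 ± 0.069, adjusted p = 5.21e-12). Tmprss2 and Fkbp5 had the profiles farthest apart among the members, with a root mean square difference of 1.67.

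Zbtb16, or PLZF, is a zinc finger transcriptional repressor. Its values were 10.75, 10.29 and 10.50 in wild type on vehicle and 10.37, 11.22, 10.99, 10.88 and 10.64 on finasteride. Mutant libraries had 11.56, 11.56 and 11.57 on vehicle and 10.68, 11.04, 10.71, 10.78 and 10.87 on finasteride. The vehicle mutants stood alone at the top, and the 3 other groups overlapped. Zbtb16 was the only member higher in the mutant on vehicle (1.05 ± 0.17, adjusted p = 0.00028). Finasteride lowered it in the mutant (-0.75 ± 0.15, adjusted p = 0.000968, but 0.0585 over 11 libraries). In wild type its change did not pass (0.31 ± 0.15, adjusted p = 0.123, 95% interval -0.019 to 0.63), but did without replicate 1 of wild type on finasteride (0.42, adjusted p = 0.0204). The 2 finasteride effects differed by -1.05 ± 0.22 (adjusted p = 0.000783), and on finasteride the genotypes lay 0.0023 apart with an interval of -0.28 to 0.28.

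Herc3 encodes a HECT-type ubiquitin ligase. Its levels were 9.20 to 9.66 in wild type on vehicle, 8.33 to 8.79 in wild type on finasteride, 8.16 to 8.51 in mutant on vehicle and 8.48 to 9.58 in mutant on finasteride. In mutant on finasteride replicate 2 stood at 8.48, within the low groups, and the other 4 at 9.07 or above. The same replicate had the lowest sums of seminal vesicle (16.45 against 20.48 to 21.54), endothelial (10.93 against 11.18 to 11.53) and fibroblast markers (13.53 against 13.86 to 14.00) in its group. Its smooth muscle sum was also lowest (16.18 against 16.28 to 16.63). Its luminal, basal, urothelial, adipocyte, macrophage, T cell, B cell and striated muscle sums were the highest of that group. Herc3 and the seminal vesicle sum ran in the same order among libraries of that group and of both vehicle groups. In mutant on finasteride, Fkbp5, Steap4, Zbtb16 and Tsc22d3 ran in exactly the opposite order to that sum. In wild type on vehicle, Fkbp5, Steap4, Mme, Zbtb16 and Tsc22d3 ran in the same order as that sum, and Tmprss2 in the opposite one. The part of the seminal vesicle and other markers was not tested. Herc3 fell on finasteride in wild type (-0.88 ± 0.20, adjusted p = 0.00331, but 0.0714 over 11 libraries) and rose in the mutant (0.81 ± 0.20, adjusted p = 0.00392, but 0.0951). The difference of these effects, 1.69 ± 0.28, passed over 16 and over 11 libraries (adjusted p = 0.000158 and 0.0146). On vehicle the mutant was lower (-1.05 ± 0.22, adjusted p = 0.00247, but 0.0504 over 11 libraries), and on finasteride it was higher (0.65 ± 0.17, adjusted p = 0.00445, but 0.142).

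Ndrg1, a cytoplasmic protein tied to growth arrest and differentiation and raised by hypoxia as well as androgen, was lowest in mutant on vehicle, at 8.19 to 8.35. The other groups overlapped, at 8.79 to 9.33 in wild type on vehicle, 8.59 to 9.29 on finasteride and 8.66 to 9.44 in mutant on finasteride. Replicate 2, with the low and high marker sums given for Herc3, was again the lowest of the mutant finasteride libraries. In wild type on vehicle Ndrg1 ran in the opposite order to the seminal vesicle sum. Finasteride raised Ndrg1 in the mutant (0.89 ± 0.18, adjusted p = 0.000864, but 0.0556 over 11 libraries), and the change in wild type did not pass (-0.23 ± 0.18, adjusted p = 0.318, 95% interval -0.61 to 0.15). The effects differed by 1.12 ± 0.25 (adjusted p = 0.0016, but 0.0553 over 11 libraries). On vehicle the mutant was lower (-0.78 ± 0.20, adjusted p = 0.0078, but 0.115 over 11 libraries). Between genotypes on finasteride the difference did not pass (0.34 ± 0.15, adjusted p = 0.0663, 95% interval 0.011 to 0.67), although it did without replicate 1 of wild type (adjusted p = 0.0115) or replicate 2 of the mutant (0.00666).

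Tsc22d3, or GILZ, is a leucine zipper protein that restrains inflammatory transcription factors. It was 11.12 to 11.37 in wild type on vehicle, 10.79 to 11.19 in mutant on vehicle and 10.99 to 11.25 in mutant on finasteride. Wild type on finasteride spread from 9.71 to 11.10. Within that group, replicate 5 was lowest for Tsc22d3 (9.71) and for Fkbp5 (10.24). Replicate 1 was nearly as low for Fkbp5 (10.36) but not for Tsc22d3 (10.75). Tsc22d3 fell on finasteride in wild type (-0.67 ± 0.23, adjusted p = 0.0292, but 0.232 over 11 libraries). That call was lost without replicate 1 (0.102) or 3 (0.0815) of wild type on vehicle or replicate 4 on finasteride (0.0602), and with only the compared groups (0.0908). On finasteride Tsc22d3 was higher in the mutant (0.54 ± 0.20, adjusted p = 0.026), a call lost without replicate 4 of wild type (0.0598) or replicate 5 of the mutant (0.0524). The change in the mutant (0.15, interval -0.33 to 0.63) and the difference on vehicle (-0.28, interval -0.82 to 0.26) did not pass. Its difference between genotypes in the finasteride effect was 0.82 ± 0.32 (adjusted p = 0.0398), and with 1 library left out at a time that adjusted p ran from 0.0132 to 0.0972, above the threshold in 8 of 16 cases (in wild type, vehicle replicates 1 and 3 and finasteride replicate 4; in the mutant, vehicle replicates 2 and 3 and finasteride replicates 2, 4 and 5).

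**Figure D2:**
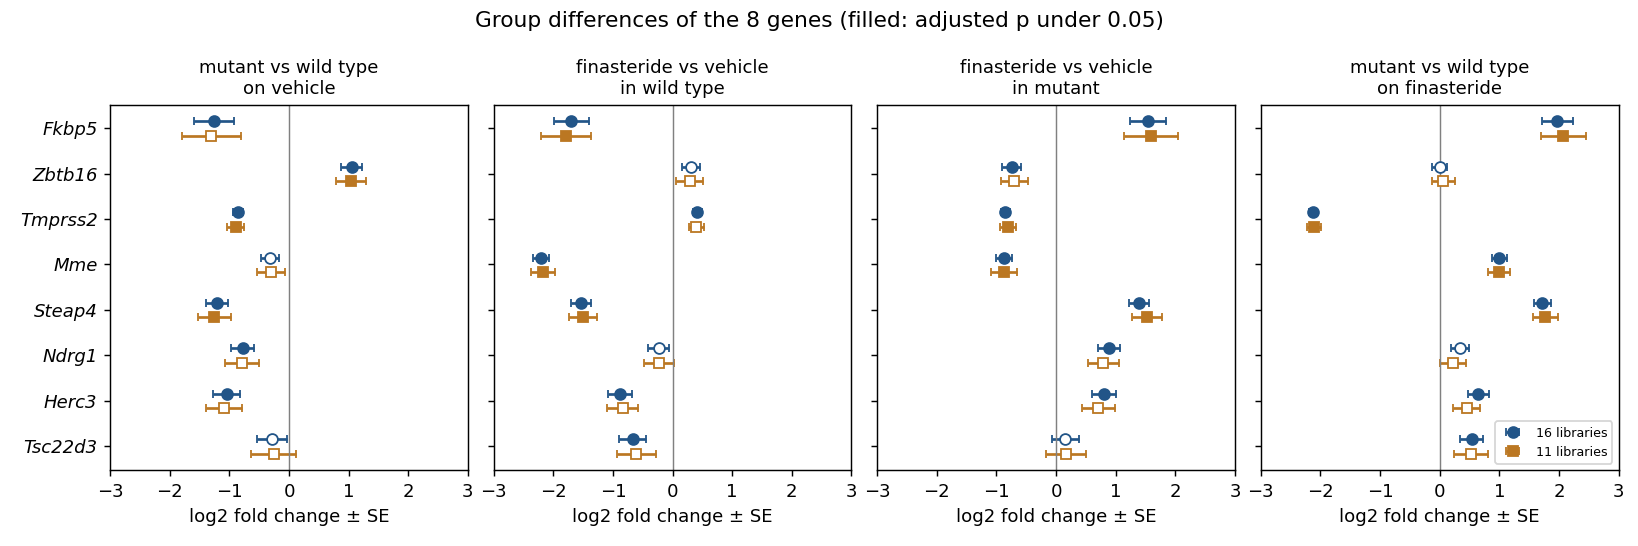
Log2 fold change ± SE (x axis) of each gene in 4 comparisons, over 16 libraries (circles) and without the 5 mixture-like libraries (squares). Filled symbols have an adjusted p under 0.05; the fold changes of Fkbp5 and Steap4 lie to the left of 0 for finasteride in wild type and to the right of it in the mutant under both fits.

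The first comparison asked how loss of the gene alone bears on androgen-induced genes. On vehicle, 5 of the 8 were lower in the mutant (Fkbp5, Tmprss2, Steap4, Ndrg1 and Herc3), 1 was higher (Zbtb16) and 2 did not pass (Mme and Tsc22d3). Of all tested genes, 17.5% were lower and 14.3% higher. The median fold change of the members was -0.82, against -0.0019 for all tested genes. Over 11 libraries 3 members passed (Zbtb16, Tmprss2 and Steap4), where 9.06% of all tested genes did.

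The second asked what finasteride does to them in normal prostate. In wild type 5 members fell (Fkbp5, Mme, Steap4, Herc3 and Tsc22d3), 1 rose (Tmprss2) and 2 did not pass, where 21.9% of all tested genes fell and 17.9% rose. The members' median was -0.78, against -0.028 for all tested genes. Mme fell 4.60-fold, Fkbp5 3.24-fold and Steap4 2.90-fold, and these 3 passed over 11 libraries, as 8.55% of all tested genes did. This comparison and the one before share the wild-type vehicle libraries, so their results are not independent.

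The third asked the same in the mutant. There 4 members rose (Fkbp5, Steap4, Ndrg1 and Herc3), 3 fell (Zbtb16, Tmprss2 and Mme) and 1 did not pass, where 26.3% of all tested genes rose and 22.3% fell. Over 11 libraries 4 members passed (Fkbp5, Tmprss2, Mme and Steap4), and 20.3% of all tested genes did. Between genotypes on finasteride, 5 members were higher in the mutant (Fkbp5, Mme, Steap4, Herc3 and Tsc22d3) and 1 was lower (Tmprss2), where 33.9% of all tested genes were higher and 29.7% lower. Without the mixture-like libraries 4 of these 6 passed, and 41.1% of all tested genes did.

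The fourth asked whether the finasteride response differed with genotype, which compares groups that share no library. All 8 members passed the interaction over 16 libraries, 6 with a more positive effect in the mutant and 2 (Zbtb16 and Tmprss2) with a more negative one. Among all tested genes 30.2% had a more positive and 26.6% a more negative effect, so a difference between genotypes was common in these prostates. Over 11 libraries 6 members passed, Ndrg1 and Tsc22d3 being lost, and 29.4% of all tested genes did. Finasteride moved 4 members significantly in opposite directions in the 2 genotypes: Fkbp5, Steap4 and Herc3 fell in wild type and rose in the mutant, and Tmprss2 did the reverse. The share of all tested genes with opposite calls was 20.0%. Over 11 libraries Fkbp5 and Steap4 kept opposite calls, where 3.34% of all tested genes had them. Counting sign alone, 7 of 8 members differed in direction between the genotypes, against 67.6% of all tested genes.

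**Figure D3:**
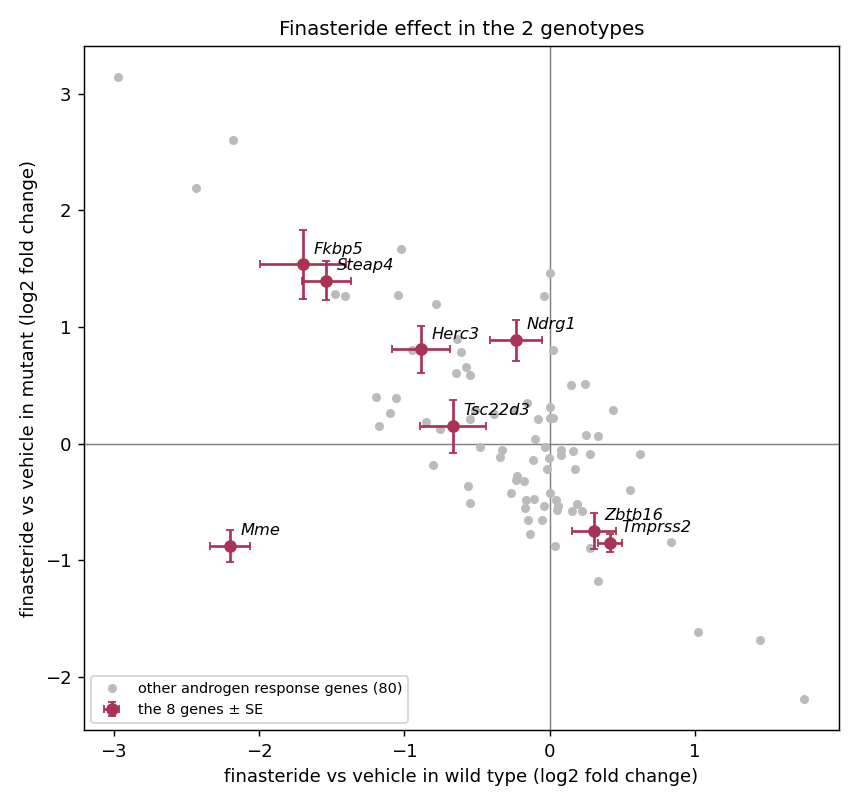
Finasteride effect in wild type (x axis) against that in the mutant (y axis), both as log2 fold changes, for the 8 genes with SE bars and for 80 other androgen response genes in grey. Fkbp5, Steap4 and Herc3 lie in the upper left, Tmprss2 in the lower right, and Mme alone among the 8 in the lower left.

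The enzymes that make dihydrotestosterone and some steroid receptors were measured in the same libraries. Srd5a2, the main 5-alpha-reductase of prostate, had mean values of 7.56 in wild type on vehicle and 6.23 on finasteride, and of 6.49 and 7.34 in the mutant. It fell in wild type (-1.33 ± 0.20, adjusted p = 0.000225) and rose in the mutant (0.85 ± 0.20, adjusted p = 0.00279, but 0.0905 over 11 libraries), as Fkbp5 and Steap4 did. Srd5a1 rose in the mutant (0.34 ± 0.12, adjusted p = 0.0325, but 0.186 over 11 libraries), and Srd5a3 passed in none of the 5 comparisons. Nr3c1, the glucocorticoid receptor, passed in 1 comparison, lower in the mutant on finasteride (-0.33 ± 0.13, adjusted p = 0.0348, but 0.0884 over 11 libraries). The mineralocorticoid receptor Nr3c2 fell on finasteride in the mutant (-0.83 ± 0.12, adjusted p = 4.28e-05) and did not pass in wild type (0.087 ± 0.12, adjusted p = 0.579). The progesterone receptor Pgr fell in the mutant (-0.81 ± 0.20, adjusted p = 0.00417, but 0.082 over 11 libraries).

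Of 81 other androgen response genes listed by name, 80 were tested. Over 11 libraries, 8.55% of all tested genes passed for finasteride in wild type, 20.3% in the mutant and 9.06% for genotype on vehicle. These shares, in either direction, also apply to the gene lists that follow. On finasteride in wild type 30 fell (37.5%, against 21.9% of all tested genes) and 10 rose (12.5%, against 17.9%), with a median of -0.11. Over 11 libraries 8 fell and 4 rose. On vehicle 25 were lower in the mutant (31.25%, against 17.5%) and 10 higher (12.5%, against 14.3%), with a median of -0.074, but over 11 libraries 7 were lower and 8 higher. In the mutant finasteride lowered 29 (36.25%, against 22.3%) and raised 22 (27.5%, against 26.3%), with a median of -0.042. Over 11 libraries it lowered 19 and raised 9. The ornithine decarboxylase Odc1, which starts polyamine synthesis, fell in wild type (-0.85 ± 0.084, adjusted p = 1.32e-05). The desaturase Scd1 moved as Fkbp5 did, falling in wild type (-0.95 ± 0.075, adjusted p = 2.01e-06) and rising in the mutant (0.80 ± 0.075, adjusted p = 1e-06). Sord, sorbitol dehydrogenase, did the reverse, at 1.45 ± 0.14 in wild type (adjusted p = 1.28e-05) and -1.68 ± 0.14 in the mutant (adjusted p = 3.66e-07). In the interaction 26 of the 80 were more positive and 24 more negative in the mutant, near the 30.2% and 26.6% of all tested genes.

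Other glucocorticoid response genes were listed because Fkbp5, Zbtb16 and Tsc22d3 also answer to that hormone. Of 19 tested, 10 rose and 3 fell on finasteride in wild type (52.6% and 15.8%, against 17.9% and 21.9% of all tested genes), with a median of 0.30, and over 11 libraries 9 rose and 2 fell. In the mutant 9 rose and 5 fell (47.4% and 26.3%, against 26.3% and 22.3%), with a median of 0.37, and over 11 libraries 4 rose and 2 fell. The clock gene Per1 rose in wild type (1.30 ± 0.12, adjusted p = 1.16e-05) where Fkbp5 and Tsc22d3 fell. Metallothionein Mt2 also rose there (1.03 ± 0.12, adjusted p = 3.84e-05). Lcn2, the iron-binding lipocalin, went the way of Fkbp5, falling in wild type (-1.51 ± 0.18, adjusted p = 3.85e-05) and rising in the mutant (3.30 ± 0.18, adjusted p = 4.08e-09).

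Most chaperones that hold steroid receptors together with Fkbp5 rose in wild type where Fkbp5 fell. Of 14 such genes 11 rose and 0 fell on finasteride in wild type (78.6% rose, against 17.9% of all tested genes), with a median of 0.68. In the mutant 0 rose, against 26.3% of all tested genes, and 3 fell, with a median of -0.24. The 21.4% that fell lay near the 22.3% of all tested genes. Over 11 libraries 3 rose in wild type and 0 fell in the mutant. Hspa8 rose in wild type (1.54 ± 0.26, adjusted p = 0.000463), as did Hsp90ab1 (0.86 ± 0.16, adjusted p = 0.00102, but 0.0612 over 11 libraries). Fkbp4, the immunophilin that takes the place of Fkbp5 as receptors are activated, rose in wild type (0.76 ± 0.13, adjusted p = 0.000477) and fell in the mutant (-0.59 ± 0.13, adjusted p = 0.00147, but 0.0802 over 11 libraries). Its interaction was -1.35 ± 0.18 (adjusted p = 2.23e-05), opposite in sign to the 3.24 of Fkbp5.

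Markers of other cell types moved in the same samples. For the counts below, 21.9% of all tested genes fell on finasteride in wild type and 26.3% rose in the mutant. Over 11 libraries 8.55% and 20.3% of all tested genes passed in these comparisons, in either direction. Summed adipocyte markers (5 genes, including Adipoq and Lep) lay at log2 levels of 10.28 to 10.87 in wild type on vehicle, 6.13 to 9.64 on finasteride, 8.38 to 9.15 in mutant on vehicle and 10.35 to 10.69 on finasteride. All 5 fell on finasteride in wild type (4 over 11 libraries) and 2 rose in the mutant (1 over 11 libraries), and up to 4 of the 5 were under a log2 value of 3 in a wild-type finasteride library. Macrophage markers (5 genes) lay at 10.68 to 11.09, 9.98 to 10.57, 10.09 to 10.25 and 11.20 to 11.55 in the same order, with 4 falling in wild type (2 over 11 libraries) and 5 rising in the mutant (also 5). Fibroblast markers lay at 14.08 to 14.21, 13.17 to 13.66, 13.20 to 13.40 and 13.53 to 14.00, with 3 of 5 falling in wild type and 3 rising in the mutant (2 and 0 over 11 libraries). No macrophage or fibroblast marker was under a log2 value of 3 in any library. These orders of groups resemble those of Fkbp5 and Steap4, although the fibroblast ranges of both finasteride groups overlapped. The part of these markers in the result was not tested. T cell markers were at 7.0 to 7.11, 6.55 to 7.22, 7.80 to 7.82 and 8.75 to 9.56, with 5 of 5 rising in the mutant and 0 passing in wild type. B cell markers (4 genes) lay at 6.29 to 6.54, 5.29 to 5.89, 5.00 to 5.88 and 8.31 to 8.82. Of these 2 fell in wild type (1 over 11 libraries) and 4 rose in the mutant (also 4). Up to 3 of the 4 were under a log2 value of 3 in a wild-type finasteride library. Endothelial markers lay at 10.63 to 10.65, 10.19 to 10.62, 10.34 to 10.39 and 10.93 to 11.53. Of these 5 genes 2 fell in wild type (1 over 11 libraries) and 4 rose in the mutant (also 4). Smooth muscle markers lay at 15.92 to 16.26, 15.98 to 16.72, 15.59 to 15.89 and 16.18 to 16.63, with 5 of 5 rising in the mutant (0 over 11 libraries). Endothelial and smooth muscle markers rose with Fkbp5 and Steap4 there. The B cell and endothelial orders of groups also resembled those of Fkbp5 and Steap4. The part of these cell types was not tested.

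The sum of 5 secretory markers lay at 20.87 to 20.90 in wild type on vehicle and 20.13 to 20.78 on finasteride, where Tmprss2 rose. It lay at 19.00 to 19.31 in mutant on vehicle and 17.63 to 17.80 on finasteride, where Tmprss2 fell. The secretory markers went opposite ways on finasteride in both genotypes. In wild type 1 rose and 2 fell (20.0% and 40.0%, against 17.9% and 21.9% of all tested genes), and 0 and 1 over 11 libraries. Tgm4 went there from a mean of 18.69 to 19.60 and Msmb from 16.07 to 10.94. Spink3 and Sbp scattered in wild type on finasteride, with SDs of 4.58 and 4.86. In the mutant 2 rose and 2 fell (40.0% each, against 26.3% and 22.3%), and 1 and 2 over 11 libraries. Pbsn, or probasin, went from a mean of 15.69 to 11.08 and Tgm4 from 18.98 to 16.27, while Msmb went from 9.59 to 12.99 and Sbp from 7.80 to 16.34. The luminal sum overlapped between wild type on vehicle (15.90 to 16.13) and mutant on finasteride (15.85 to 16.13), but its members also diverged. Between genotypes on finasteride 2 of 7 luminal markers were higher and 4 lower in the mutant (1 and 4 over 11 libraries), with a median of -0.39. These shares were 28.6% and 57.1%, against 33.9% and 29.7% of all tested genes. Epcam had means of 13.09 in wild type on vehicle and 14.01 in mutant on finasteride, and Hoxb13 had 13.01 and 12.11. Seminal vesicle markers varied within groups, from 9.67 to 21.52 in wild type on vehicle, 9.26 to 14.33 on finasteride, 16.45 to 17.74 in mutant on vehicle and 16.45 to 21.54 on finasteride. The part of these markers in the results was not tested.

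**Figure D4:**
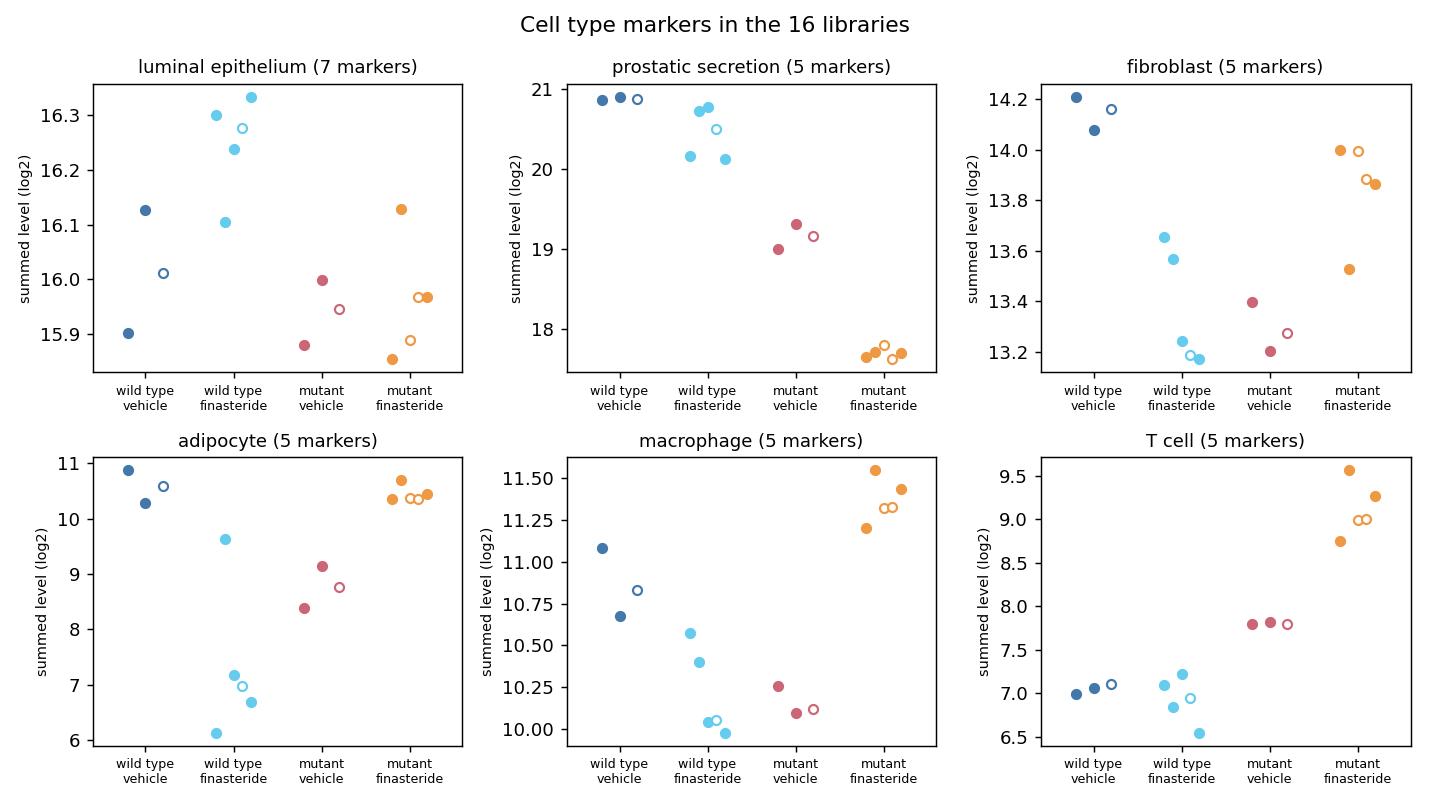
Summed level (log2, y axis) of 6 sets of cell type markers in every library, by group, with open points for the 5 mixture-like libraries. Adipocyte, macrophage and fibroblast sums are low in wild type on finasteride and mutant on vehicle, and the T cell sum is highest in mutant on finasteride, at 8.75 to 9.56.

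Genes with profiles near to each member were sought among 11979 candidates by the root mean square difference of centred values over 16 libraries. Fkbp5 lay nearest to the aldehyde dehydrogenase Aldh1a7 (0.21) and the sulphur amino acid enzyme Cbs (0.29). Around their own mean Fkbp5 values spread by 0.96. Steap4 lay nearest to Fam149a (0.20) and S100a10 (0.24), with its own spread of 0.81. Tmprss2 had Limch1 (0.18) and Prkca (0.18) beside it, at a spread of 0.89. Mme had Nin (0.35) and Hgf (0.38) nearest, at a spread of 0.87. Zbtb16 lay by Slc25a30 and Myef2 (both 0.16), Ndrg1 by Spock2 (0.12) and Pfkp (0.14), Herc3 by Slc16a9 (0.14), and Tsc22d3 by Echdc1 (0.20) and Fosl2 (0.21), at spreads of 0.39, 0.39, 0.49 and 0.40. No nearest gene was itself a member.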

How the data were processed

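Poly-A selected RNA was sequenced from TruSeq libraries on a HiSeq2000, per the labels' protocols. The submitters' processing notes name CASAVA 1.8.2, TopHat, Cufflinks, DESeq, DESeq2 and build mm9, and which of them made the table is not given in the sources used here. The authors deposited normalized values on a log2 scale; base 2 was inferred from the size of the values, and fold changes of low genes may be understated if the scale is shrunken. Read depth is unknown. The mutated gene and some other genes are not reported here.

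A gene was tested if its mean, back on the linear scale, reached 10; tests were run with limma 3.58.1 (R 4.3.3), with a variance trend, on 4 group means over 16 libraries. No sample was dropped or imputed in that fit. Members, lists and alternatives were chosen with earlier results of these data known, and lists are described by counts and medians. At most 4 genes of a list, those of lowest p, are named in a comparison; some steroid receptors and the 5-alpha-reductases are named whatever their p. The nearest profiles of each member were sought among genes with a mean of at least 50. The mixture search used genes with log2 values of at least 8 in the whole group, and required both weights over 0.2. The fit over 16 libraries was checked in each comparison on simulated data with independent libraries. That check does not bear on whether the mixture-like libraries are separate samples. Alternatives were 9 settings and leaving out each library. Promoters are from RefSeq (GRCm38.p6); no coordinates were converted.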

Additional observations from a re-analysis of the deposited data

Results flagged for a closer look

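The finasteride effect in the mutant minus that in wild type passed the threshold for each of the 8 genes, which sets these results apart for a closer look. The values were 3.24 for Fkbp5, 2.93 for Steap4, 1.69 for Herc3, 1.33 for Mme, 1.12 for Ndrg1, 0.82 for Tsc22d3, -1.05 for Zbtb16 and -1.27 for Tmprss2 on the log2 scale. Adjusted p (limma) ran from 2.53e-07 for Steap4 to 0.0398 for Tsc22d3. Of all tested genes 30.2% passed this test with a positive and 26.6% with a negative value. No library stood apart by Dixon's criterion in any of the 16 sets of 5 values tested (8 genes in both finasteride groups).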

How the results depend on the processing

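Without the 5 mixture-like libraries, 3 members passed in the genotype effect on vehicle, 3 for finasteride given to wild type and 4 for finasteride given to the mutant, instead of 6, 6 and 7 respectively; this fit has fewer samples. The numbers passing for genotype on finasteride and for the interaction stayed within 1.5 times, under every alternative. Of 352 member values under the 9 settings, 330 kept direction and side of the threshold, 19 lost significance, 1 gained it and 2 changed sign. Of 640 with 1 library left out, 617 kept both, 13 lost significance, 4 gained it and 6 changed sign. The sign changes all concern Zbtb16 between genotypes on finasteride, a difference of -0.0023 that became 0.14 under quantile normalization, 0.059 without the mixture-like libraries, and -0.12 to 0.097 with 1 library left out; it passed in none. Median centring shifted the fold changes of all tested genes, whose median came to -0.14 for finasteride in the mutant, -0.11 between genotypes on finasteride and -0.21 in the interaction; quantile normalization gave -0.16 in the interaction. Under median centring Tsc22d3 lost its call in the interaction (0.61, adjusted p = 0.102) and between genotypes on finasteride (0.41, adjusted p = 0.0723). The first was also lost with no filter (0.0508), no variance trend (0.0514) or over 11 libraries (0.23), and the second with only the compared groups (0.0559) or over 11 libraries (0.169). No paired analysis was possible because the titles carry running numbers that groups do not share.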

Other observations

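Of 24 tested relatives of the members, 5 rose and 6 fell on finasteride in wild type (20.8% and 25.0%, near the 17.9% and 21.9% of all tested genes), and 1 rose and 1 fell over 11 libraries. In the mutant 8 rose and 9 fell (33.3% and 37.5%, against 26.3% and 22.3%), and 3 rose and 5 fell over 11 libraries. Of all tested genes 8.55% in wild type and 20.3% in the mutant passed over 11 libraries, in either direction. The same shares apply to the hypoxia counts below. Ndrg2 moved as Fkbp5 did, falling in wild type (-0.97 ± 0.11, limma adjusted p = 3.34e-05) and rising in the mutant (1.09 ± 0.11, adjusted p = 2.26e-06), with calls kept over 11 libraries. Among the Steap genes, Steap1 moved against Steap4: it rose in wild type (0.95 ± 0.23, adjusted p = 0.00443, but 0.0625 over 11 libraries) and fell in the mutant (-0.63 ± 0.23, adjusted p = 0.0319, but 0.278). On finasteride Steap1 was lower in the mutant (-2.14 ± 0.20, adjusted p = 2.13e-07), while the serine protease hepsin, Hpn, was higher (3.24 ± 0.19, adjusted p = 2.31e-09) where Tmprss2 was lower.

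Hypoxia response genes, listed because Ndrg1 also answers to hypoxia, numbered 20. On finasteride in the mutant, where Ndrg1 rose, 4 rose and 7 fell (20.0% and 35.0%, against 26.3% and 22.3% of all tested genes), and over 11 libraries 1 rose and 1 fell. In wild type, where Ndrg1 did not pass, 6 rose and 1 fell (30.0% and 5.0%, against 17.9% and 21.9%), and over 11 libraries 2 rose and 0 fell. The prolyl hydroxylase Egln3 rose on finasteride in the mutant (2.01 ± 0.31, adjusted p = 9.48e-05). Ddit4 fell in the mutant (-0.97 ± 0.22, adjusted p = 0.00212, but 0.0811 over 11 libraries).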
